A study of Mus musculus with 6 samples.

Results

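The receptors of the epidermal growth factor (EGF) family and their ligands were followed in 2 cell types, as 10 genes: the receptors Egfr, Erbb2 and Erbb3 and the ligands Areg, Ereg, Hbegf, Btc, Tgfa, Epgn and Nrg1. They were taken by gene symbol, as the probe sets of the deposited table that were paired with exactly 1 symbol. That gave 8 of the 10 members, 3 receptors and 5 ligands, each with 1 probe set, among 10261 genes tested in all. Areg and Btc have no probe set with a symbol of their own in the probe table and were not analysed here.

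The RNA came from 6 samples, 3 with the label keratinocytes and 3 with the label MEF and both sets numbered as biological replicates, and was read on Affymetrix MoGene-1_0-st arrays, 1 per sample. Keratinocytes, the main cells of the epidermis, came from newborn mice at postnatal day 0, and mouse embryonic fibroblasts (MEFs) came from embryos at E13.5, with the head and inner organs discarded and several embryos cut up together. Neither group received a treatment. The methods describe growth of keratinocytes in a supplemented epidermal keratinocyte medium and of MEFs in DMEM with serum, so that cell type, age and medium cannot be told apart as sources of a difference. For the MEFs the methods give the strain C57BL/6J, whereas the isolation protocol names DR-4 as its desired strain, and the sources used here give no strain for the keratinocytes.

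ErbB receptors are tyrosine kinases that pair with each other once a ligand is bound. Egfr binds EGF, transforming growth factor alpha, amphiregulin, epigen and related ligands, Erbb3 binds neuregulins and has little kinase activity of its own, and Erbb2 has no known ligand and serves as the partner of the others. The ligands are made as membrane proteins and are cut free by ADAM proteases. Keratinocytes are known to make both Egfr and several of its ligands, an autocrine loop that supports their growth and migration, whereas ligands from fibroblasts reach epithelial cells in a paracrine manner.

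The labels were checked with Cdh1, which encodes E-cadherin, and Vim, which encodes the mesenchymal filament protein vimentin. Cdh1 had log2 signals of 3.33, 2.16 and 3.26 on the keratinocyte-labelled arrays and of 8.62, 8.59 and 8.73 on the MEF-labelled ones. Vim had log2 signals of 11.93, 11.97 and 12.03 on the keratinocyte-labelled arrays and of 3.81, 3.92 and 3.78 on the MEF-labelled ones. Both ran against the cell type labels, and so did each of 5 keratinocyte and 5 fibroblast markers. The mean log2 signal of the keratinocyte markers was 2.66 to 3.20 on the keratinocyte-labelled arrays and 10.08 to 10.13 on the MEF-labelled ones, and that of the fibroblast markers was 11.26 to 11.36 and 3.71 to 4.03. Every direction below is therefore given for the arrays as labelled, and the MEF-labelled arrays are those with high Cdh1 and keratins. An exchange of labels or columns before deposit is possible and could not be tested with the sources used here. With such an exchange every direction would pass to the other cell type.

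Background was set per array as the 95th percentile of the signals of 10 olfactory receptor probe sets, genes not thought to be used in these cells, and came to 5.49 to 5.92 on the keratinocyte-labelled arrays and 6.05 to 6.58 on the MEF-labelled ones. Where a group had no array above background, the fold is a lower bound. The level is rough, since without the brightest of the 10 it was 5.25 to 5.57 over the 6 arrays, which raised several bounds for genes higher on the keratinocyte-labelled arrays by over 1.5 times. Such a low signal does not show that a gene is silent, and with cells in bulk, fewer cells with a transcript and less of it per cell cannot be told apart. Calls were made at an adjusted p under 0.05 from limma, with Benjamini-Hochberg adjustment over 11288 probe sets. Precision is limited by the small number of arrays, and an exact permutation test of 3 arrays against 3 cannot give a p below 0.1.

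All 8 measured members were higher on the MEF-labelled arrays, and for each of the 8 the arrays of the groups did not overlap. Over all genes, 74.5% passed the test in either direction, 41.7% as higher on the MEF-labelled and 32.9% on the keratinocyte-labelled arrays, and 43.4% lay higher on the MEF-labelled arrays without overlap. The differences were of unequal size. For Epgn, Erbb3, Tgfa and Nrg1 the log2 difference was over 1, which 14.4% of all genes reached in that direction, while for Egfr, Erbb2, Hbegf and Ereg it was under 1. The median log2 difference, as labelled MEFs minus labelled keratinocytes, was 1.60 over the 8 members, 0.34 over the 3 receptors and 2.47 over the 5 ligands, against 0.12 over all genes. In the signed median of all genes, differences of opposite direction offset each other. Without regard to sign, the median over all genes was 0.57, larger than that of the receptors and smaller than that of the ligands.

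**Figure D1:**
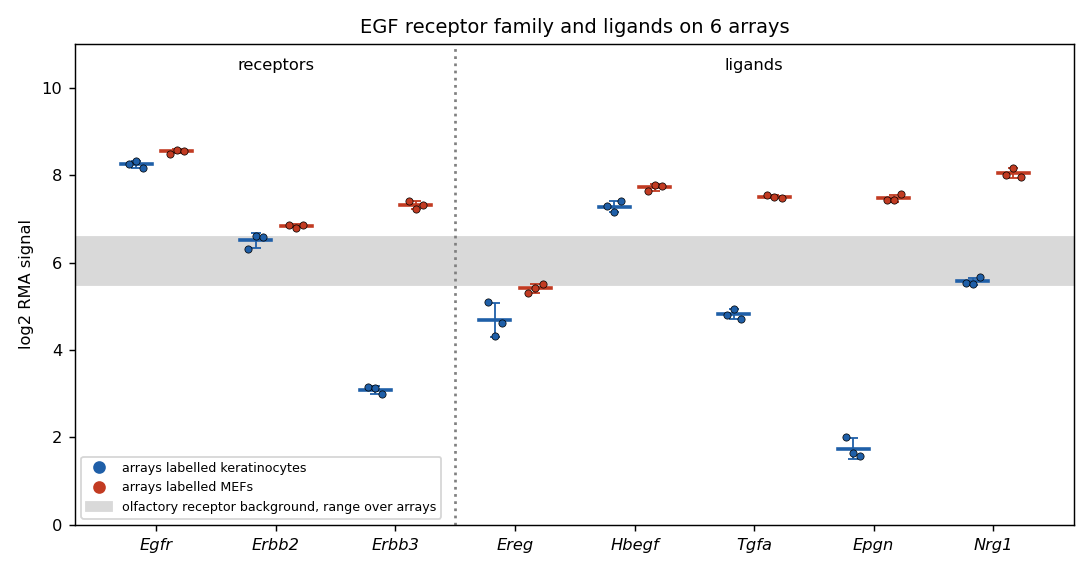
Log2 RMA signal (vertical axis) of the 8 measured members on the 3 keratinocyte-labelled (blue) and the 3 MEF-labelled arrays (red). Each point is an array, horizontal lines mark the group mean with its SD (n = 3), and the grey band spans the lowest to the highest background level of the 6 arrays. Egfr and Hbegf lie above the band in both groups, Erbb3, Tgfa and Epgn lie above it on the MEF-labelled arrays and below it on the others, and Ereg does not rise above it in either group.

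Among the receptors, Egfr itself was bright in both groups. Its log2 signal was 8.25, 8.31 and 8.17 on the keratinocyte-labelled arrays and 8.49, 8.59 and 8.56 on the MEF-labelled ones. The groups did not overlap, but the nearest arrays lay 0.18 apart. Egfr was 1.23-fold higher on the MEF-labelled arrays, a log2 difference of 0.30 (95% interval 0.10 to 0.50, adjusted p = 0.0139 from limma), and 72.7% of all genes differed by at least as much. With each array centred on its median the difference was 0.20 and no longer passed (adjusted p = 0.0679 from limma), nor did it with quantile normalization (0.22, adjusted p = 0.0523 from limma). Without MEF-labelled replicate 2 it also missed the threshold (0.28, adjusted p = 0.0545 from limma).

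Erbb2, the partner receptor without a ligand, had a difference similar in size to that of Egfr. It had log2 signals of 6.32, 6.62 and 6.58 on the keratinocyte-labelled arrays and of 6.87, 6.80 and 6.87 on the MEF-labelled ones, with 0.19 between the nearest arrays of the groups. Each signal was above background, but by less than for Egfr. The background was 5.70, 5.92 and 5.49 on the keratinocyte-labelled arrays and 6.53, 6.05 and 6.58 on the MEF-labelled ones. Erbb2 was 1.27-fold higher on the MEF-labelled arrays, a log2 difference of 0.34 (95% interval 0.10 to 0.58, adjusted p = 0.0182 from limma). The difference fell under the threshold with median centring (0.24, adjusted p = 0.0702 from limma), with quantile normalization (0.24, adjusted p = 0.0745 from limma) and without MEF-labelled replicate 3 (0.33, adjusted p = 0.0578 from limma).

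Erbb3, the neuregulin receptor, had the largest difference of the 3 receptors. Its log2 signal was 3.16, 3.13 and 2.99 on the keratinocyte-labelled arrays and 7.41, 7.22 and 7.33 on the MEF-labelled ones. It was above background on each MEF-labelled array and on none of the keratinocyte-labelled ones. The log2 difference as measured was 4.22 (95% interval 4.00 to 4.45, adjusted p = 6.43e-09 from limma), and against the background level Erbb3 was at least 3.07-fold higher on the MEF-labelled arrays.

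Among the ligands, Epgn encodes epigen, which binds Egfr. Its log2 signal was 2.02, 1.64 and 1.57 on the keratinocyte-labelled arrays and 7.43, 7.42 and 7.57 on the MEF-labelled ones. The former 3 values were far under background and the latter 3 above it, 5.40 apart at their nearest. The log2 difference as measured was 5.73 (95% interval 5.43 to 6.04, adjusted p = 6.58e-09 from limma), and against background Epgn was at least 3.42-fold higher on the MEF-labelled arrays.

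Tgfa, which encodes transforming growth factor alpha, a high-affinity ligand of Egfr, was likewise above background in 1 group alone. Its log2 signal was 4.80, 4.93 and 4.71 on the keratinocyte-labelled arrays and 7.54, 7.51 and 7.47 on the MEF-labelled ones. Each MEF-labelled array and none of the keratinocyte-labelled ones was above background. The log2 difference as measured was 2.69 (95% interval 2.48 to 2.91, adjusted p = 5.41e-08 from limma), and Tgfa was at least 3.50-fold higher on the MEF-labelled arrays. The bounds for Epgn, Tgfa and Erbb3 give no order of size among them.

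Nrg1 encodes neuregulin 1, a ligand of Erbb3 rather than of Egfr. It had log2 signals of 5.54, 5.52 and 5.67 on the keratinocyte-labelled arrays and of 8.01, 8.17 and 7.97 on the MEF-labelled ones. It was 5.54-fold higher on the MEF-labelled arrays, a log2 difference of 2.47 (95% interval 2.25 to 2.69, adjusted p = 1.06e-07 from limma), with 1 of the 3 keratinocyte-labelled arrays above background. Nrg1 and its receptor Erbb3 were thus both higher on the same 3 arrays. Of 4 listed Schwann cell markers, a cell type in which this pair is also known to act, Foxd3 alone was measured, and it was above background on no array and did not pass (adjusted p = 0.394 from limma).

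Hbegf encodes heparin-binding EGF-like growth factor, which is released at wound margins, and like Egfr it was above background in both groups. Its log2 signal was 7.29, 7.15 and 7.41 on the keratinocyte-labelled arrays and 7.64, 7.78 and 7.76 on the MEF-labelled ones, with 0.23 between the nearest arrays. It was 1.36-fold higher on the latter, a log2 difference of 0.44 (95% interval 0.21 to 0.68, adjusted p = 0.00426 from limma). It kept this call with median centring and with quantile normalization, at log2 differences of 0.35 and 0.34.

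Ereg, which encodes epiregulin, a ligand of Egfr, was above background on no array of either group. Its log2 signal was 5.10, 4.33 and 4.61 on the keratinocyte-labelled arrays and 5.30, 5.43 and 5.51 on the MEF-labelled ones. The spread among the former was the widest of any member (SD 0.39, n = 3), and replicate 1 lay 0.21 under the nearest array of the other group. Ereg passed the test with a log2 difference of 0.73 (95% interval 0.32 to 1.15, adjusted p = 0.00642 from limma), but with both groups under background no fold is given. This status depends on the background level. Without its brightest olfactory receptor probe set, Ereg was above background on 2 of the 3 MEF-labelled arrays and on none of the keratinocyte-labelled ones.

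**Figure D2:**
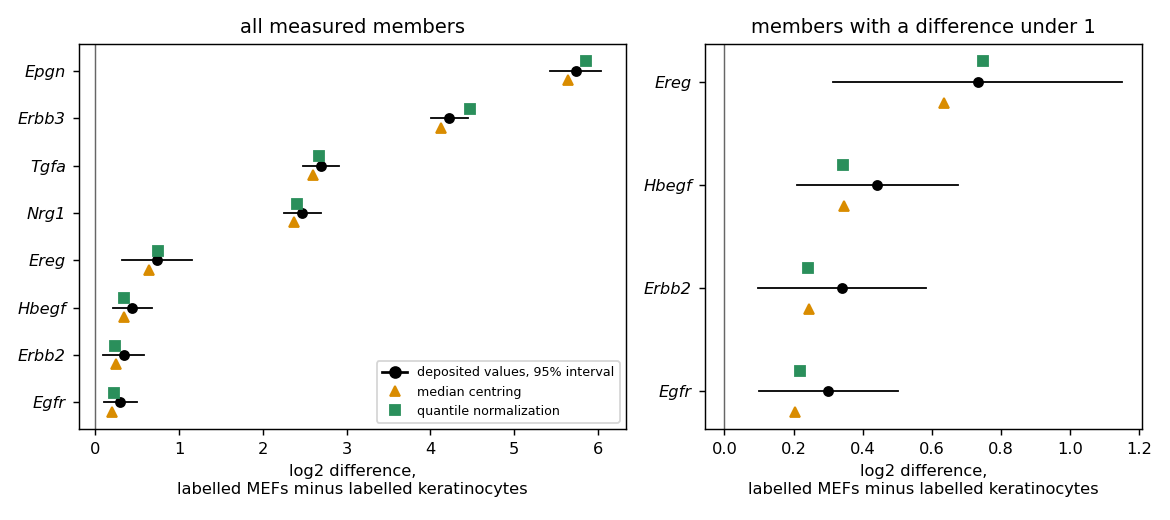
Log2 difference of each measured member, labelled MEFs minus labelled keratinocytes (horizontal axis), with the 95% interval from limma on the deposited values (black) and the difference after median centring (orange) and quantile normalization (green), for all 8 members on the left and for the 4 with a difference under 1 on the right, where the axis is wider. Epgn, Erbb3, Tgfa and Nrg1 lie above 2 under each scaling, and Egfr and Erbb2 move from 0.30 and 0.34 to between 0.20 and 0.24.

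**Figure D3:**
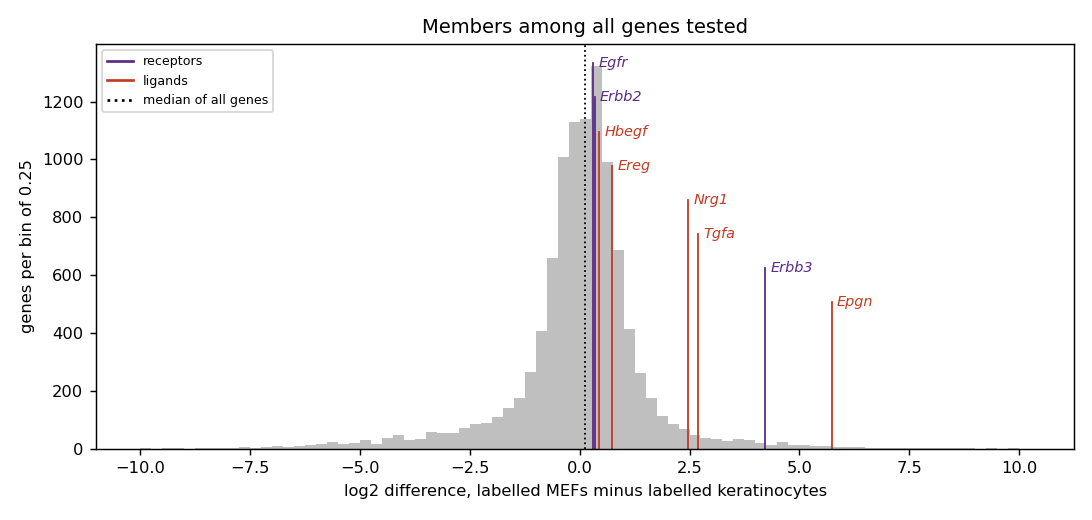
Histogram of the log2 difference, labelled MEFs minus labelled keratinocytes (horizontal axis), of 10261 genes (vertical axis, genes per bin of 0.25), with receptors (purple) and ligands (red) marked by lines whose heights carry no value and the median of all genes, 0.12, dotted. Egfr, Erbb2, Hbegf and Ereg lie within the main peak and Nrg1, Tgfa, Erbb3 and Epgn in its right tail.

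Epgn, Ereg, Areg and Btc lie next to each other in this order on mouse chromosome 5, with no other protein-coding gene between them in the RefSeq annotation of GRCm38.p6. The values of this gene cluster and of the nearest 3 measured genes on each side were set side by side. Before the cluster, the chemokine gene Ppbp stood at 4.96 ± 0.05 (SD, n = 3) on the keratinocyte-labelled arrays and at 8.21 ± 0.12 (SD, n = 3) on the MEF-labelled ones and was at least 5.68-fold higher on the latter. The chemokine gene Cxcl1 did not pass (adjusted p = 0.0639 from limma), and Mthfd2l, which encodes an enzyme of mitochondrial folate metabolism, was higher on the keratinocyte-labelled arrays by 0.29 on the log2 scale. Cxcl1 was above background on no array, and Mthfd2l on 2 keratinocyte-labelled arrays alone. After the cluster, Parm1 was higher on the keratinocyte-labelled arrays by 1.09, though above background on no array, and Rchy1, which encodes a ubiquitin ligase, by 0.31. Thap6 was higher on the MEF-labelled arrays by 1.15, though above background on only 1 array of each group. Of the 6 flanking genes, Ppbp and Thap6 thus shared the direction of Epgn and Ereg, 3 ran the other way and 1 did not pass.

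**Figure D4:**
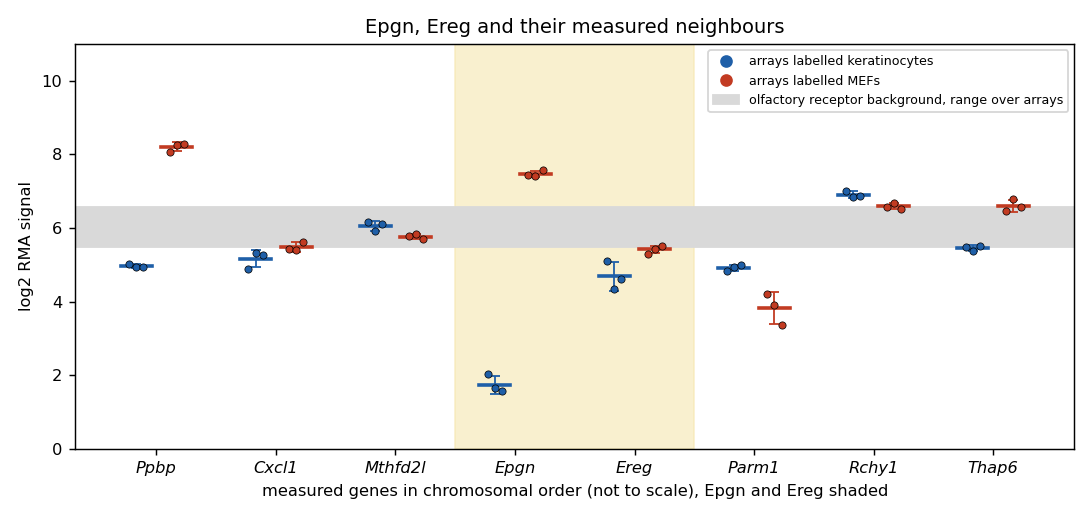
Log2 RMA signal (vertical axis) of Epgn and Ereg (shaded) and the 3 nearest measured genes on each side, in chromosomal order and not to scale, on keratinocyte-labelled (blue) and MEF-labelled arrays (red), where points are arrays, the horizontal line is the group mean, error bars show its SD (n = 3) and the background range is shaded grey. Epgn and Ppbp rise above the band only on the MEF-labelled arrays, while Mthfd2l, Parm1 and Rchy1 are higher on the keratinocyte-labelled arrays.

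Sequences upstream of the transcription start were compared between members with a large and a small difference. RefSeq promoters (GRCm38.p6) were at hand for 6 members, 4 of them measured: Epgn, Tgfa, Egfr and Erbb2. The 250 bases before the start of Epgn (chr5:91027267-91027516, plus strand) and of Tgfa (chr6:86194972-86195221, plus strand) are shown for the ligands with a large difference, and those of Egfr (chr11:16751953-16752202, plus strand) for a receptor with a small one. They are printed 5′ to 3′, and capitals mark every match, on either strand, to TGANTCA (an AP-1 site), CAGGTG (the E-box bound by Zeb and Snail factors), AACCNGTT (a grainyhead site), GGGCGG (an Sp1 box) or TATAAA (bound by TBP).
Epgn: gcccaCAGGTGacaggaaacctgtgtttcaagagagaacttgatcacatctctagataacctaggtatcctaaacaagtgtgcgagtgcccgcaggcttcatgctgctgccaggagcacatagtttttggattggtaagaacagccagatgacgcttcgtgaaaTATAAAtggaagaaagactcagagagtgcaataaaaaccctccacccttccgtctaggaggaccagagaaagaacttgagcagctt
Tgfa: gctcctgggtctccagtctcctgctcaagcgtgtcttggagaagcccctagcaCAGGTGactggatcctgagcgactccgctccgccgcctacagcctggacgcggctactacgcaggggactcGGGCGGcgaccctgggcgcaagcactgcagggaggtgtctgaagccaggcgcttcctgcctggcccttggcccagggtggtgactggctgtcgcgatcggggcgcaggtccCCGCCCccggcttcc
Egfr: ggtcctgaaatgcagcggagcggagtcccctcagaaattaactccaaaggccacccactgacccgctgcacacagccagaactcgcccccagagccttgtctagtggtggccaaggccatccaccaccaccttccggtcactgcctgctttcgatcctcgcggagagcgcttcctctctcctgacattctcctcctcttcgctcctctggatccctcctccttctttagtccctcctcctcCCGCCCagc

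The Epgn stretch held 46.8% G and C, below the median of 52.4% over 32851 promoters, and contained TATAAA, which 12.4% of them had. This TATAAA began 86 bases before the start. The Tgfa stretch held 69.2% and the Egfr stretch 60.8%, with GGGCGG in both, which 32.7% of all promoters had, 2 times in Tgfa and 1 time in Egfr. That of Erbb2 held 66.0% and none of the 5 motifs. CAGGTG occurred once each in Epgn and Tgfa and not in Egfr or Erbb2, against 17.2% of all promoters. It also occurred once each in Btc and in Areg, which had TATAAA and GGGCGG as well, and neither gene has a measured signal here. TGANTCA and AACCNGTT, present in 6.75% and 1.79% of promoters, matched none of the 4 measured members. These are matches of letters in a short window and not sites shown to be bound.

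The rest of the ErbB pathway was described with lists of other genes, grouped by role. Of the ErbB family genes outside the members, Erbb4, Egf, Nrg3 and Nrg4 were not analysed here, and Nrg2, a neuregulin gene, was measured. Nrg2 had log2 signals of 3.39, 3.49 and 2.69 on the keratinocyte-labelled arrays and of 8.11, 7.99 and 8.18 on the MEF-labelled ones. Like Nrg1 it was higher on the latter, at least 5.26-fold, with a log2 difference of 4.91 (adjusted p = 1.29e-07 from limma).

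Genes of ligand release went both ways. Of 9 measured sheddases and cofactors, a list that includes the inhibitor Timp3, 6 were higher on the keratinocyte-labelled arrays. A further 2 were higher on the MEF-labelled ones and 1 did not pass (88.9% called, against 74.5% of all genes). The median log2 difference of the 9 ran toward the keratinocyte-labelled arrays. Higher on the MEF-labelled arrays were Adam17, the main sheddase of Tgfa and several other ligands, at 8.21 ± 0.08 against 7.85 ± 0.10 (SD, n = 3; 1.29-fold, adjusted p = 0.00812 from limma), and Rhbdf2, whose product carries Adam17 to the cell surface, at 7.34 ± 0.08 against 5.88 ± 0.07 (2.75-fold, adjusted p = 1.81e-06 from limma). Higher on the keratinocyte-labelled arrays were Timp3, an inhibitor of Adam17, at 10.24 ± 0.01 against 6.91 ± 0.09 (10.0-fold), the metalloproteinase gene Adam19 (at least 2.81-fold) and Bace1, which encodes a protease known to cut neuregulin 1 (at least 3.13-fold). Adam17 and Rhbdf2 thus went one way and the inhibitor Timp3 the other, but 66.5% of all genes differed by at least as much as Adam17. Rhbdf1, on the same list as Rhbdf2, was the gene that did not pass (adjusted p = 0.178 from limma). The sheddase genes Adam10, Adam12 and Adam15 ran against Adam17, higher on the keratinocyte-labelled arrays by 0.37, 0.59 and 0.44 on the log2 scale.

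Of 24 measured adaptors and effectors, 8 were higher on the keratinocyte-labelled arrays, 9 on the MEF-labelled ones and 7 did not pass (70.8% called). The main adaptor Grb2 stood at 7.45 ± 0.01 and 7.32 ± 0.15 (SD, n = 3) and did not pass. Higher on the MEF-labelled arrays were Eps8l2, a relative of the receptor substrate Eps8 (at least 5.45-fold), the phospholipase gene Plcg2 (at least 3.15-fold) and the adaptor gene Grb7 (at least 1.89-fold). Higher on the keratinocyte-labelled ones were Pik3r1, a regulatory subunit of phosphoinositide 3-kinase (2.89-fold, with 1 MEF-labelled array above background), the adaptor gene Shc1 (2.23-fold) and Eps8 itself (at least 1.64-fold). Eps8 and Eps8l2 were therefore higher in opposite groups.

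Of 19 measured inhibitors, ubiquitin ligases and sorting genes, 8 were higher on the keratinocyte-labelled arrays, 7 on the MEF-labelled ones and 4 did not pass (78.9% called). Lrig3, from a family of transmembrane proteins that includes the ErbB inhibitor Lrig1, was at least 2.24-fold higher on the keratinocyte-labelled arrays. Lrig1 itself stood at 6.60 on those arrays and 6.61 on the MEF-labelled ones and did not pass (adjusted p = 0.928 from limma). The endocytic adaptor gene Sh3kbp1 was at least 1.50-fold higher on the keratinocyte-labelled arrays and the signalling inhibitor Socs3 at least 1.27-fold. Cd2ap, an adaptor related to Sh3kbp1, was 4.23-fold higher on the MEF-labelled arrays, as were the phosphatase genes Ptprj (at least 2.04-fold) and Ptpn1 (1.88-fold).

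Genes that ErbB and other growth factor receptors are known to induce were divided in the same manner. Of 25 measured, 12 were higher on the keratinocyte-labelled arrays, 11 on the MEF-labelled ones and 2 did not pass (92.0% called), with 7 in each direction by at least 1 on the log2 scale. Higher on the keratinocyte-labelled arrays were the feedback inhibitor Spry1 (at least 2.23-fold) and the immediate early factors Egr1 (at least 1.61-fold) and Jun (at least 2.69-fold). Higher on the MEF-labelled ones were Myc (3.86-fold), the ETS factor Etv4 (at least 1.94-fold) and Ier3 (3.16-fold, with 1 keratinocyte-labelled array above background). No array showed 3 of the 25 above background. The 12 higher on the keratinocyte-labelled arrays fell to 2 when only the brighter probe sets, at or over the median, were tested, and to 6 when a signal above background on at least 3 arrays was asked for. Under these same settings the 11 higher on the MEF-labelled arrays came to 8 and 10, so the even division did not hold for the brighter genes.

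**Figure D5:**
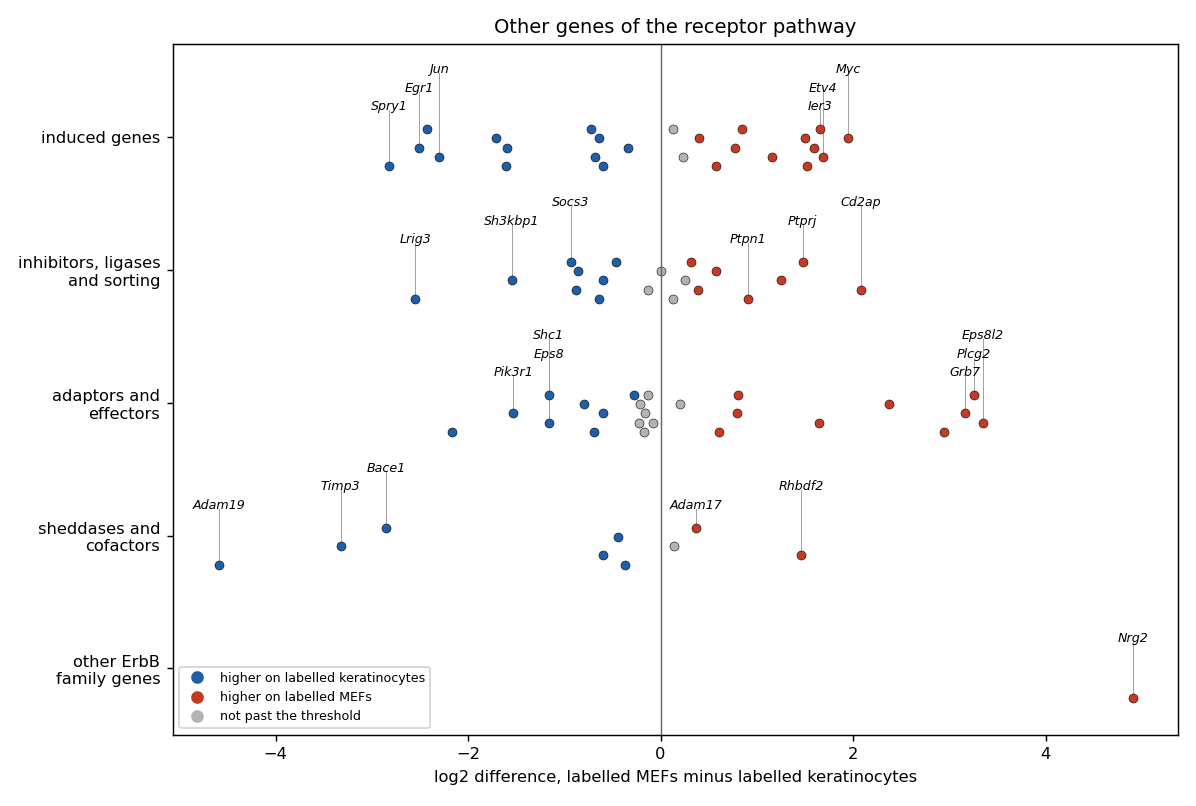
Log2 difference, labelled MEFs minus labelled keratinocytes (horizontal axis), of the measured genes of 5 pathway lists (rows, with vertical scatter for legibility only), coloured by call at an adjusted p under 0.05, with names for the genes given in the text. Nrg2 lies farthest right at 4.91 and Adam19 farthest left, and the sheddases, adaptors, inhibitors and induced genes spread to both sides.

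For each member, the 2 other genes with the most similar profile were found by the root mean square distance over the 6 arrays between log2 values centred on each gene's own mean. Because the 6 arrays form 2 clusters, this measure mostly reads the size of the group difference. Nearest to Epgn were Abca12, which encodes a lipid transporter of the epidermal barrier (distance 0.12), and Vsnl1 (0.16), nearest to Erbb3 were Acp5 (0.08) and Zdhhc23 (0.09), nearest to Tgfa Serpinb8 (0.05) and Rab3d (0.07) and nearest to Nrg1 Shroom2 (0.03) and Dtx4 (0.06). For the members with small differences the nearest genes were Nop53 and Usf3 for Egfr, Lin52 and Cdc42se1 for Erbb2, Rexo4 and Lsm6 for Hbegf and Cript and Polq for Ereg, with distances of 0.01 to 0.08.

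The groups also differed in markers of other cells. All 3 measured skeletal muscle markers, and 2 of the 3 measured for cartilage, ran higher on the keratinocyte-labelled arrays, but of these only Actc1 and Col2a1 were above background on each of the 3 arrays, Des was so on 1, and Tnnt3 and Acan on none. The third cartilage marker, Sox9, was above background on all 6 arrays and 1.80-fold higher on the MEF-labelled ones. Of the listed macrophage and Langerhans cell markers, Cd68 alone was measured. It was higher on the MEF-labelled arrays, at 8.56 ± 0.12 against 4.64 ± 0.32 (SD, n = 3). Of 4 listed endothelial markers, Kdr alone was measured. It was higher on the MEF-labelled arrays too but above background on no array, and melanocyte and erythroid markers were not analysed here. Their part in the differences of the members was not tested.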

How the data were processed

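RNA of primary keratinocytes and MEFs was hybridised to 6 Affymetrix MoGene-1_0-st arrays. For each array the authors deposited a log2 signal of 15648 probe sets. Per the study's methods, RMA with oligo (version 1.46.0 in the submitters' processing notes) was used. The range of the values fits such output, but the sources used here state neither that the table is it, nor which arrays were normalized together, nor how probe sets were picked. RMA brings arrays to a shared distribution and compresses dim signals, so small differences depend on scaling. Levels of different probe sets are not on 1 scale, and each was set against the background level only.

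Groups came from the sample titles. The platform's probe table gave 1 symbol for 11288 probe sets and several for 645, and 3715 were not listed. Symbols were updated by gene identifier with RefSeq (GRCm38.p6), which held 11274 of them. A gene with more than 1 probe set (572 of 10261) was read from its brightest one. Differences were fitted with lmFit and eBayes of limma 3.58.1 (R 4.3.3), with no block. In simulated arrays with 200 of 11288 probe sets changed, 86% of log2 changes of 1 and 97% of changes of 2 were recovered, and 6.63% of the calls were false. Far more genes passed in the data than were changed in this simulation, so its rates need not hold there.

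The members, lists and markers were chosen with earlier results of these data known. The text names every member, Cdh1 and Vim, up to 3 genes per list and direction with the largest differences (past the threshold, without overlap, above background on each array of a group), the neighbours of the chromosome 5 cluster and the 2 nearest profiles per member. Grb2, Lrig1, Rhbdf1, Adam10, Adam12, Adam15 and the ErbB genes not analysed here fall outside this rule. So do the markers of muscle, cartilage and other cells. All of these were chosen after their values were seen. Alternatives covered pairing by replicate number, single arrays, scaling (median centring, quantile), filters on dim signals, the variance model, the methods' t-test, the treatment of several probe sets, the set of probe sets fitted and a minimum difference. Plots were made with matplotlib 3.10.9 (Python 3.11.15).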

Additional observations from a re-analysis of the deposited data

How the results depend on the processing

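Of the 18 alternatives, only median centring and quantile normalization could have turned a direction, and under both no member changed direction. The others left each difference as it was or dropped a single array from groups that did not overlap. Epgn, Erbb3, Tgfa and Nrg1 passed in each alternative in which they were tested, with log2 differences of 5.64 to 5.87, 4.13 to 4.47, 2.60 to 2.76 and 2.37 to 2.52. The count of 8 members past the threshold, all higher on the MEF-labelled arrays, came to 4 when only probe sets at or over the median were tested, which left 4 members, and to 4 when a call also asked for a log2 difference of at least 1, while 0 were higher on the keratinocyte-labelled arrays in any setting. It was 6 with median centring and with quantile normalization, where Egfr and Erbb2 missed the threshold, and 7 with the methods' t-test after Benjamini-Hochberg adjustment, where Ereg did (8 at the unadjusted threshold). With single arrays left out it was 7 to 8. The median difference of all genes, 0.12 on the log2 scale, was 0.02 after median centring. The 64 pathway genes past the threshold came to 41 and 34 under the same 2 settings, which by construction test fewer genes or call fewer, and ranged from 62 to 66 with single arrays left out.

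The replicate numbers did not pair the arrays: same-numbered arrays correlated at -0.19, -0.15 and -0.06 in their deviations from the group means. With the replicate block 8 members and 63 pathway genes passed, and 7059 of all genes in place of 7649. With the brightest olfactory receptor probe set left out of the background, an alternative chosen after seeing the data, the lower bounds became 3.61-fold for Erbb3, 4.11-fold for Tgfa and 4.01-fold for Epgn. Those of genes higher on the keratinocyte-labelled arrays moved further, from 2.81 to 5.66 for Adam19, 3.13 to 6.32 for Bace1, 2.24 to 4.52 for Lrig3, 2.23 to 4.49 for Spry1 and 1.61 to 3.25 for Egr1. For Jun (2.69), Sh3kbp1 (1.50), Eps8 (1.64) and Socs3 (1.27) a measured fold, 4.94, 2.92, 2.24 and 1.91, took the place of the bound. The number of arrays and the rough background limit what can be said of Ereg and of signals under background.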
